A study of Mus musculus with 12 samples.

Results

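The genes described here are those of the bone morphogenetic protein (BMP), growth and differentiation factor (GDF) and transforming growth factor beta (TGF-beta) pathways and their Smad effectors in embryonic testis of the mouse. They were picked by a rule on gene symbols that was set with earlier results of these data known. It took every numbered *Bmp*, *Gdf*, *Tgfb*, *Tgfbr* and *Smad* gene, the *Bmpr* receptors, 6 antagonists (among them *Nog*, *Chrd*, *Grem1*, *Bmper* and *Bambi*), and the targets *Id1* to *Id4*. This gave 48 of the 35976 gene symbols counted, of which 10 encode BMP ligands, 10 GDF ligands, 3 TGF-beta ligands, 1 a protease (*Bmp1*), 6 receptors, 8 Smads, 6 antagonists and 4 Id proteins.

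RNA was sequenced from 12 pools of testes taken at E15.5, each from 3 embryos of outbred Swiss (RjOrl) mice, with 3 pools in each of 4 groups. The insecticide thiacloprid (*thia*), a neonicotinoid, was given to pregnant F0 females by gavage in olive oil at 6 mg/kg/day from E6.5 to E15.5, and F0 controls received the oil alone. F1 control and F1 *thia* embryos were carried by these dams, so the F1 *thia* embryos were themselves exposed up to the day of collection. F3 control and F3 *thia* embryos descended from F1 and F2 males mated to untreated females, and neither F3 group was exposed directly. All 4 groups were of the same outbred stock, no group carried an engineered allele, and the labels do not say which embryos or pools shared a litter. The paper states that the breeding from F0 to F3 was repeated independently, and the labels do not tie pools to either round.

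A ligand of this family binds a pair of type I and type II serine/threonine kinase receptors on the cell surface, which phosphorylate receptor Smads. Smad1, Smad5 and Smad9 carry the BMP branch and Smad2 and Smad3 the TGF-beta branch, both with the common partner Smad4, while Smad6 and Smad7 inhibit signalling. The family takes part in germ cell specification in the early embryo. In the fetal gonad it takes part in cord and vessel formation and in the choice between testis and ovary programmes. The Id genes, which encode inhibitors of basic helix-loop-helix transcription factors, are classical immediate targets of BMP signalling.

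Library totals ran from 25081647 to 68996146 reads in genes, so that 1 CPM, a read count scaled to the size of its library, corresponded, before the TMM scaling of library sizes, to 25.1 to 69.0 reads and the members under 1 CPM rest on few reads. The library labelled F3 *thia* replicate 2 stood apart from the other F3 *thia* libraries, since its chi-square over genes per degree of freedom was 90.7 and 101 against them, and 17.3 to 42.2 in the other replicate pairs. F1 *thia* replicate 2 held 670 CPM of 8 skeletal muscle genes, against 25.7 to 88.2 CPM in the other F1 libraries. The 6 adrenal genes listed summed to 119.5 CPM in F3 *thia* replicate 3, against 33.9 to 66.3 CPM in all other libraries. The labelled tissue was borne out by its markers, since all 8 Sertoli cell, 6 fetal Leydig cell and 8 germ cell genes listed were detected. Erythroid genes summed to 5194 to 15357 CPM in F1 control, 7821 to 18915 CPM in F1 *thia*, 61868 to 66568 CPM in F3 control and 45051 to 82056 CPM in F3 *thia*. In bulk tissue, fewer cells of a type and less RNA per cell cannot be told apart.

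The stretches before the transcript start of 4 members are shown, because these genes carry the differences described further on: *Gdf10* and *Tgfb1* lay higher in F3 *thia* than in F3 control, *Bmper* lay lower, and *Id4* stands for the Id targets. Each is the 250 bases upstream of the RefSeq start on the GRCm38.p6 assembly, written 5′ to 3′ on the plus strand, which is also the strand of the gene. Capitals mark any match, on either strand, to GTCTAGAC (a palindromic Smad box), to GGCGCC (a GC-rich Smad motif), to CAGAC (a Smad box core) or to TATAAA. The stretches lie at chr14:33923337-33923586, chr7:25686752-25687001, chr9:23222826-23223075 and chr13:48260866-48261115, all of them before the first exon.
Gdf10: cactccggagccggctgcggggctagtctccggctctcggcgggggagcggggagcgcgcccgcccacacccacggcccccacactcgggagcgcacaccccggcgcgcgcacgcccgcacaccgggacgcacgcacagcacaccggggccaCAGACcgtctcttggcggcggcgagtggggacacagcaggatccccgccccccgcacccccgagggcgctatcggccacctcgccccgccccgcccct
Tgfb1: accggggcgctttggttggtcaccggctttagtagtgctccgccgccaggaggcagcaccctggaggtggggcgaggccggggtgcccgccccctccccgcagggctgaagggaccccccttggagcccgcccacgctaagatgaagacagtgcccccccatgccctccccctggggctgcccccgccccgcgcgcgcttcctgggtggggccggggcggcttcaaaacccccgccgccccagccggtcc
Bmper: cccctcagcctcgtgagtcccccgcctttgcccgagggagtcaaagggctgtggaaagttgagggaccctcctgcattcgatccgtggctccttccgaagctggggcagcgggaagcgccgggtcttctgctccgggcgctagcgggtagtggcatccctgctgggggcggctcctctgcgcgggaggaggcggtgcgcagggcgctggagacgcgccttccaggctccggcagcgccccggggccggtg
Id4: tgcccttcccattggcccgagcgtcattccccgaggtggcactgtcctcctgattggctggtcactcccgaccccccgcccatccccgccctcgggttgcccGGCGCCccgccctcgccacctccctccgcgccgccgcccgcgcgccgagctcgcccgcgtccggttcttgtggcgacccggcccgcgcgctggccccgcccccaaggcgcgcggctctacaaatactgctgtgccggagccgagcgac

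These promoters were rich in G and C, at 78.8% in *Gdf10*, 75.2% in *Tgfb1*, 71.6% in *Bmper* and 75.6% in *Id4*. *Gdf10* held a single match, to CAGAC, and *Id4* a single match, to GGCGCC, while the windows of *Tgfb1* and *Bmper* held none of these letters. Of the 48 members, 31 had a window in the RefSeq table. These genes had 38 windows, since some have several starts. GGCGCC was present in 10 of the 38 (*Bmpr1a*, *Bmpr2*, *Chrd*, *Gdf1*, *Grem1*, *Id2*, *Id4*, *Smad5*, *Smad9* and *Tgfbr1*) and in 9.59% of all 32851 windows. CAGAC or its complement GTCTG was in 17 of 38 and in 42.2% of all windows, and TATAAA in 5 of 38 and in 12.4%. GTCTAGAC was in no member's window and in 0.167% of all windows. A match to such short motifs is a description of the letters and no evidence of binding.

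Levels were compared between genes as RPKM, that is, CPM per kilobase of exon. *Id3* and *Id1* stood at the top, with a mean over the 12 libraries of 66.6 and 57.9 RPKM, while *Id2* averaged 30.7 and *Id4* 7.96. *Smad4*, the common Smad, was the highest Smad at 37.9 RPKM, and *Bmpr1a*, a type I BMP receptor, the highest receptor at 30.7. Among ligands the TGF-betas were above the BMPs and GDFs. *Tgfb3* averaged 19.95 RPKM, *Tgfb2* 14.03 and *Tgfb1* 8.72, whereas the highest BMP, *Bmp4*, averaged 6.44 and the highest GDF, *Gdf10*, 5.80. Among the antagonists, *Bambi*, a decoy receptor, averaged 11.2 RPKM and *Grem1*, a secreted BMP antagonist, 0.0670.

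**Figure D1:**
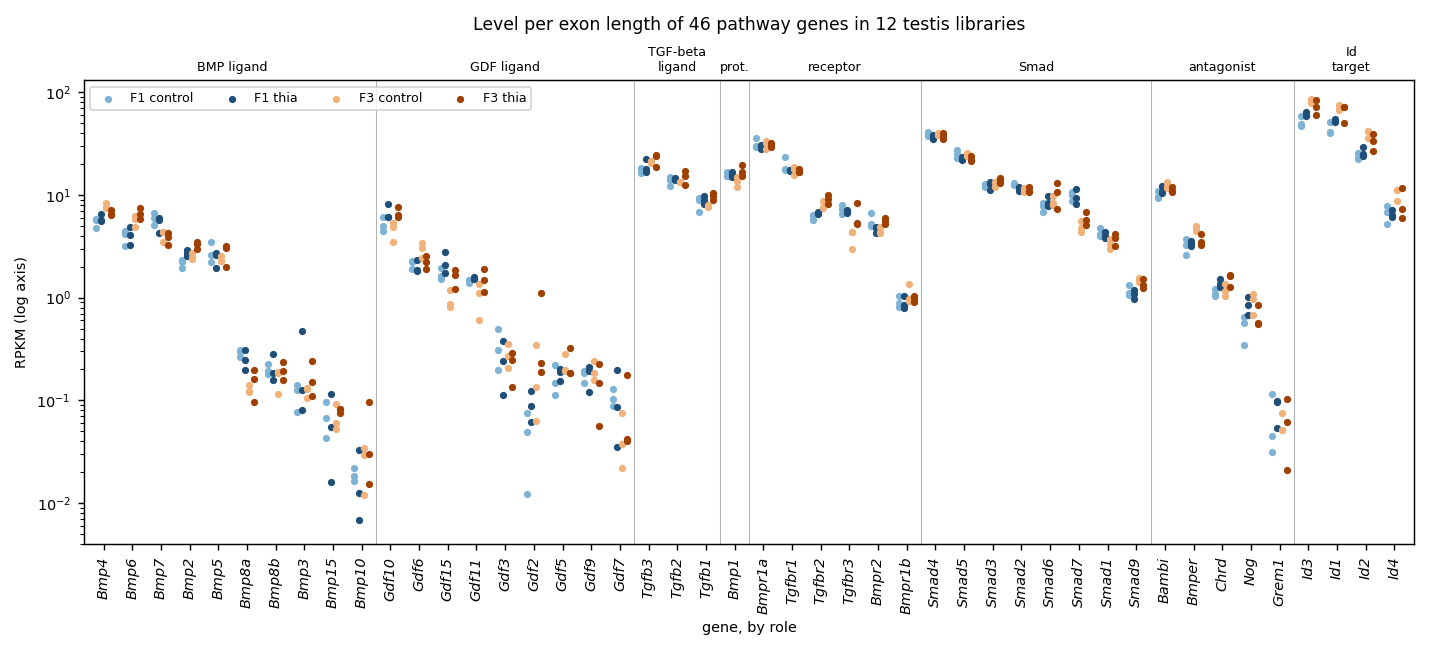
RPKM on a log axis of 46 members with any count, ordered by role and by mean level, with 1 point per library and the 3 libraries of each group in 1 colour. *Id3*, *Id1*, *Smad4*, *Id2* and *Bmpr1a* are the 5 highest, and the ligands *Bmp8a*, *Bmp8b*, *Bmp3*, *Bmp15*, *Bmp10*, *Gdf3*, *Gdf2*, *Gdf5*, *Gdf9* and *Gdf7* average under 0.3 RPKM.

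Ligands known from the oocyte or from other tissues were near the limit of detection. *Bmp15* and *Gdf9*, oocyte factors, averaged 0.0700 and 0.172 RPKM, *Bmp10* 0.0272, *Gdf7* 0.0860 and *Gdf2* 0.207. *Gdf1* was listed at 0 in every library, and its exons share sequence on the same strand with *Cers1*, so that this 0 carries no information on its expression. *Bmp8a* and *Bmp8b*, which are related genes, averaged 0.205 and 0.192 RPKM, and how any reads that match both were counted is uncertain. Exons of *Bmp4*, *Bmp5*, *Bmp6*, *Bmp8b*, *Bmpr1a*, *Chrd*, *Gdf5*, *Id4*, *Tgfb2* and *Tgfb3* overlap a gene on the opposite strand. *Tgfbr3* shares exon sequence on its own strand with *Gm43422*, and *Smad5* with *Gm27301*. The strand setting of the counting is not given in the sources used here.

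For the effect of *thia* within a generation, no member passed the test. With the quasi-likelihood test of edgeR, 0 of 45 members tested in F1 had an adjusted p under the FDR of 0.15, where 0.0105% of all 19137 genes did, and 0 of 43 tested in F3 were under the FDR of 0.10, where 0.0% of 18539 genes were. *Bmp10*, *Gdf1* and *Gdf7* did not pass the filter on low counts in either generation, nor *Bmp15* and *Grem1* in F3. The values that came closest were small and mostly positive in both generations, with *Bmp2* and *Gdf10* near the front in each.

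In F1, an unadjusted p under 0.05 was reached by 6 of 45 members (13.3%, against 8.76% of all genes), namely *Gdf10*, *Id1*, *Id3*, *Bmp2*, *Nog* and *Chrd*, each higher in *thia*, where 4.63% of all genes were higher at that threshold. The median log2 fold change of the members was 0.04, beside 0.01 over all genes tested. The count rested on single libraries. It was 1 without F1 control replicate 2 (7.59% of all genes in that fit), 1 without F1 control replicate 3 (5.95%) and 2 without F1 *thia* replicate 2 (7.94%). Control and *thia* did not overlap for 9 of 45 members in F1 (7 with *thia* above and 2 below), where *thia* lay wholly above for 6.55% and wholly below for 8.45% of all genes. The Wald test of DESeq2 likewise called 0 of 45 members in F1, where it called 1.01% of all genes.

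In F3, the unadjusted threshold was reached by 9 of 43 members (20.9%, against 21.1% of all genes), which is close to the background. *Tgfb1*, *Bmpr2*, *Gdf10*, *Tgfbr3*, *Bmp2*, *Gdf15* and *Bmp1* were higher in *thia* and *Bmper* and *Gdf6* lower, where 11.0% of all genes were higher, and the median of the members was 0.11 beside 0.00 over all genes. Without F3 control replicate 1 the count was 3 (11.9% of all genes), without F3 *thia* replicate 3 it was 4 (13.8%) and without F3 *thia* replicate 2 it was 16 (22.3%). The groups did not overlap for 10 of 43 members in F3 (7 with *thia* above and 3 below), beside 13.4% of all genes above and 13.9% below. With all 12 libraries in the fit, 4 of 45 members passed the FDR in F3 (8.89%, against 9.86% of all genes), and at an FDR of 0.15 it was 3 of 43 (6.98%, against 9.85%). Leaving out F3 *thia* replicate 2 also brought 4 members under the FDR (among them *Bmper* and *Id4* lower and *Bmpr2* higher), with 6.82% of all genes called in that fit. DESeq2 called 8 of the 36 members to which it gave an adjusted p (22.2%, against 14.9% of all genes), which were *Tgfb1*, *Tgfbr3*, *Gdf10*, *Bmpr2*, *Gdf15*, *Bmp2* and *Bmp1* as higher and *Bmper* as lower. A two-sided exact permutation test over 3 control and 3 *thia* pools cannot go below p = 0.1, so the p-values used are those of the model over all genes.

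**Figure D2:**
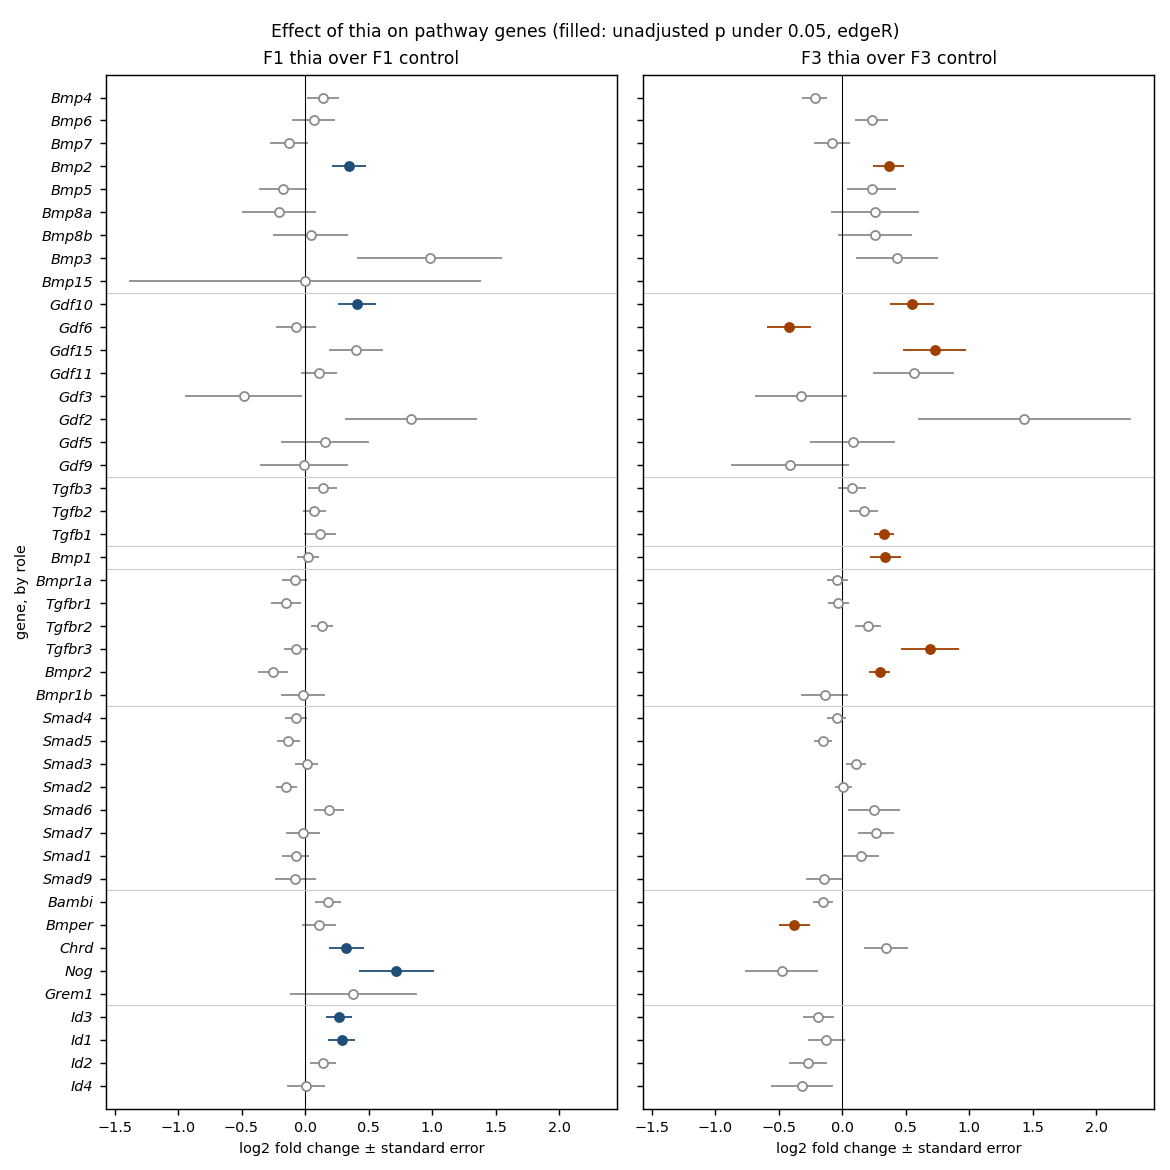
Log2 fold change of *thia* over control with its standard error for the members tested, in F1 (left, 44 members) and F3 (right, 42 members), ordered by role. Filled points have an unadjusted edgeR p under 0.05. The 6 filled points in F1 are all positive, those in F3 are 7 positive and 2 negative, and the 4 Id genes lie below 0 in F3.

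*Bmp2*, a BMP ligand that the fetal ovary makes more of than the testis, showed the same shift in both generations. It was at 6.93, 7.89 and 8.34 CPM in F1 control and 9.62, 9.05 and 10.3 CPM in F1 *thia*. In F3 it was at 8.75, 9.68 and 8.40 CPM in control and 10.5, 11.8 and 12.3 CPM in *thia*. Every *thia* library lay above every control library of its generation, and *Bmp2* was the only member of the 43 tested in both generations for which this held, while 1.01% of all 18229 genes tested in both did so. The log2 fold change was 0.34 ± 0.13 (SE) in F1 and 0.36 ± 0.12 in F3, with edgeR adjusted p of 0.535 and 0.165, so neither passed the FDR in the fit of its own generation. In F3 it passed with DESeq2 (adjusted p = 0.0753) and with edgeR in the fit of all 12 libraries. Of the 5 ovary genes listed as markers besides *Bmp2*, 1 was higher in F1 *thia* at an unadjusted p under 0.05 and 0 in F3, with sums of 85.7 to 96.8 CPM in F1 control and 85.4 to 96.4 CPM in F1 *thia*, and of 118 to 129.96 and 110.2 to 149.7 CPM in the F3 groups. F3 *thia* replicate 3, the library highest in *Bmp2*, held 5.32 CPM of *Foxl2* and 11.5 CPM of *Irx3*. The other F3 libraries held 0.566 to 2.59 and 0.782 to 2.70 CPM. In that library *Wnt4* was also highest, at 69.99 CPM against 45.1 to 53.9 CPM in the other F3 libraries. *Rspo1* was within the range of the other F3 libraries and *Fst* below it.

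*Gdf10* (also called Bmp3b) was at 31.5, 23.1 and 25.9 CPM in F1 control and 42.4, 31.4 and 31.7 CPM in F1 *thia*, and these groups overlapped, the highest control value lying between the lowest *thia* values. In F3 it was at 18.3, 25.1 and 28.03 CPM in control and 31.5, 33.4 and 39.95 CPM in *thia*, without overlap. The log2 fold change was 0.41 ± 0.15 in F1 (adjusted p = 0.518) and 0.55 ± 0.17 in F3 (adjusted p = 0.149). *Gdf15*, a stress-induced ligand, was at 1.61, 2.21 and 1.49 CPM in F3 control and 3.05, 2.24 and 3.48 CPM in F3 *thia*, again without overlap, and at 2.98, 2.81 and 3.60 and 3.22, 3.82 and 5.12 CPM in the F1 groups, which overlapped. Its log2 fold change was 0.73 ± 0.25 in F3 and 0.40 ± 0.21 in F1, with adjusted p of 0.167 and 0.608.

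*Gdf11*, another GDF ligand, was at 5.59, 6.07 and 6.08 CPM in F1 control, 6.24, 6.17 and 6.501 in F1 *thia*, 2.48, 5.50 and 4.52 in F3 control and 6.02, 4.66 and 7.76 in F3 *thia*. Its log2 fold change of 0.56 ± 0.32 in F3 (adjusted p = 0.36) was as large as that of *Gdf10*, but its F3 groups overlapped and F3 control replicate 1 lay far below the other libraries. *Bmp4*, which is needed for primordial germ cells to form, was at 12.8, 10.7 and 13.1 CPM in F1 control, 14.6, 12.7 and 12.5 in F1 *thia*, 18.6, 17.1 and 16.6 in F3 control and 14.3, 15.97 and 14.7 in F3 *thia*. Its F3 *thia* libraries lay below the F3 controls, at a log2 fold change of −0.22 ± 0.10 (adjusted p = 0.255), and the F1 groups overlapped. *Gdf6* was at 10.8, 11.9998 and 8.61 CPM in F3 control and 7.84, 9.06 and 6.67 CPM in F3 *thia*, with overlap and a log2 fold change of −0.42 ± 0.17 (adjusted p = 0.229), and at 8.01, 6.68 and 7.86 and 8.28, 6.35 and 6.56 CPM in the F1 groups. *Bmp6* was at 16.4, 12.4 and 17.3 CPM in F1 control, 18.8, 12.7 and 15.96 in F1 *thia*, 18.98, 24.2 and 22.6 in F3 control and 22.7, 29.1 and 25.5 in F3 *thia*, and *thia* overlapped control in both generations. *Bmp7* overlapped likewise, at 20.5, 23.9 and 26.7 CPM in F1 control, 17.02, 23.1 and 24.1 in F1 *thia*, 17.4, 17.4 and 14.1 in F3 control and 13.2, 15.7 and 17.3 in F3 *thia*. The low ligands *Bmp3* and *Gdf2* had the largest positive fitted values (0.98 ± 0.57 in F1 and 1.43 ± 0.84 in F3), each with 1 library far above the others: *Bmp3* reached 3.47 CPM in F1 *thia* replicate 2 against 0.574 to 1.03 CPM in the other F1 libraries, and *Gdf2* 3.31 CPM in F3 *thia* replicate 2 against 0.189 to 1.04 CPM in the other F3 libraries.

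Among the TGF-beta ligands, *Tgfb1* had the smallest p of any member in F3. It was at 38.2, 39.96 and 39.2 CPM in F3 control and 49.7, 52.98 and 45.1 CPM in F3 *thia*, with all 3 *thia* libraries above the controls and a log2 fold change of 0.33 ± 0.08 (adjusted p = 0.11). In F1 it was at 47.1, 44.7 and 34.5 CPM in control and 41.6, 44.9 and 49.5 CPM in *thia*, and these overlapped. *Tgfb3* was at 61.3, 55.2 and 60.03 CPM in F1 control, 75.1, 60.8 and 56.5 in F1 *thia*, 69.8, 72.6 and 72.1 in F3 control and 63.2, 81.95 and 81.4 in F3 *thia*, with overlap in both generations. *Bmp1* is no ligand but a metalloprotease that processes procollagen and cleaves chordin. It was at 105, 132 and 122 CPM in F3 control and 135, 147 and 172 CPM in F3 *thia*, a log2 fold change of 0.34 ± 0.12 without overlap (adjusted p = 0.181), whereas the F1 values of 148, 135 and 134 CPM in control and 138, 148 and 133 CPM in *thia* were interleaved.

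Among the receptors, *Bmpr2* lay on opposite sides of control in F1 and F3, and *Tgfbr3* was apart from control in F3. *Bmpr2*, the type II BMP receptor, was at 93.1, 88.6 and 119 CPM in F1 control and 87.7, 77.3 and 84.8 CPM in F1 *thia*, every *thia* library lying below the controls. In F3 it was at 78.5, 87.96 and 76.8 CPM in control and 99.1, 92.9 and 106 CPM in *thia*, every *thia* library lying above. The log2 fold change was −0.25 ± 0.12 in F1 (adjusted p = 0.581) and 0.29 ± 0.08 in F3 (adjusted p = 0.132). It was the only member of the 43 to lie without overlap on opposite sides in the 2 generations, as did 1.11% of all genes tested in both.

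*Tgfbr3* (betaglycan), a co-receptor for TGF-beta and inhibin, was at 51.9, 42.9 and 47.9 CPM in F1 control and 46.5, 43.4 and 44.4 CPM in F1 *thia*, which overlapped. In F3 it was at 19.4, 28.4 and 28.7 CPM in control and 35.2, 33.8 and 54.4 CPM in *thia*, which did not, with a log2 fold change of 0.69 ± 0.23 (adjusted p = 0.16). The highest F3 value came from *thia* replicate 3. *Tgfbr2*, the type II TGF-beta receptor, was at 52.7, 47.1 and 50.5 CPM in F1 control, 55.5, 54.2 and 53.1 in F1 *thia*, 61.2, 61.9 and 70.9 in F3 control and 67.5, 81.9 and 74.7 in F3 *thia*, at log2 fold changes of 0.13 ± 0.09 and 0.20 ± 0.10 for *thia*. The type I receptors showed little: *Bmpr1a* was at 186, 190.5 and 226 CPM in F1 control, 191, 177 and 195 in F1 *thia*, 202, 214 and 179 in F3 control and 185, 201 and 193 in F3 *thia*, with log2 fold changes of −0.08 ± 0.10 and −0.04 ± 0.08. *Tgfbr1* and *Bmpr1b* had log2 fold changes between −0.15 and −0.01 in F1 and between −0.14 and −0.03 in F3.

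The Smads gave 0 of 8 under the unadjusted threshold of edgeR in either generation, and DESeq2 called 0 as well. Only *Smad5* had F3 groups that did not overlap, at 189, 183 and 178 CPM in control and 157, 176 and 161 CPM in *thia*. Its log2 fold change in F3 was −0.15 ± 0.07 (edgeR adjusted p = 0.277), and its F1 groups overlapped. *Smad4* was at 142, 138 and 151 CPM in F1 control, 129, 134 and 142 in F1 *thia*, 149, 142 and 141 in F3 control and 131, 148 and 140.4 in F3 *thia*, with log2 fold changes of −0.07 ± 0.09 and −0.05 ± 0.07. *Smad2* was at 111, 112 and 115 CPM in F1 control and 105, 96.5 and 100.1 CPM in F1 *thia*, without overlap and lower in *thia* by a log2 fold change of −0.15 ± 0.08 (adjusted p = 0.615). In F3 it was at 102, 98.99 and 93.4 CPM in control and 104, 96.6 and 94.8 CPM in *thia*, fully overlapping, with a value of 0.01 ± 0.07 whose sign depended on the scaling and on single libraries. *Smad1* was at 26.3, 24.9 and 29.8 CPM in F1 control, 24.9, 27.1 and 24.1 in F1 *thia*, 18.5, 20.8 and 23.4 in F3 control and 19.8, 23.6 and 26.04 in F3 *thia*. *Smad9* was at 5.92, 5.65 and 7.08, 6.42, 5.85 and 5.18, 8.22, 7.66 and 8.26 and 6.61, 7.05 and 8.18 CPM in the same 4 groups. The inhibitory *Smad7* was at 45.2, 39.1 and 48.6 CPM in F1 control, 36.9, 51.2 and 41.8 in F1 *thia*, 19.6, 25.3 and 21.6 in F3 control and 25.9, 23.1 and 30.8 in F3 *thia*, so that *thia* and control overlapped within each generation for all 3 of these. Over the 8 Smads the log2 fold changes ran from −0.15 to 0.19 in F1 and from −0.15 to 0.26 in F3.

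Of the antagonists, 2 of 6 had an unadjusted p under 0.05 in F1, *Chrd* and *Nog*, both higher in *thia*, with 5 of 6 log2 fold changes above 0 and a median of 0.25, and 1 of the 5 tested in F3, *Bmper*, which was lower, with a median of −0.15. *Chrd* (chordin), which binds BMPs, was at 7.62, 6.56 and 6.86 CPM in F1 control and 8.03, 9.55 and 8.50 CPM in F1 *thia* without overlap, at a log2 fold change of 0.32 ± 0.14 (adjusted p = 0.56), and at 7.26, 6.47 and 8.58 and 7.95, 10.3 and 10.1 CPM in F3 control and F3 *thia*, which overlapped. *Nog* (noggin), another BMP-binding antagonist, was low, at 1.10, 0.591 and 0.964 CPM in F1 control, 1.70, 1.44 and 1.14 in F1 *thia*, 1.64, 1.16 and 1.86 in F3 control and 0.932, 0.950 and 1.44 in F3 *thia*. It lay higher in F1 *thia* (0.72 ± 0.29, adjusted p = 0.556) and, with overlap, lower in F3 *thia* (−0.48 ± 0.29, adjusted p = 0.384). *Bmper*, a secreted modulator of BMP signalling in vessels, was at 24.2, 21.3 and 22.98 CPM in F3 control and 16.999, 20.3 and 15.6 CPM in F3 *thia*, all *thia* libraries lying below the controls, with a log2 fold change of −0.38 ± 0.12 (adjusted p = 0.152). In F1 it was at 15.6, 12.6 and 17.9 CPM in control and 16.6, 17.2 and 15.4 CPM in *thia*, with overlap. *Bambi* was at 55.7, 48.9 and 47.1 CPM in F1 control, 61.5, 52.96 and 55.97 in F1 *thia*, 67.2, 62.2 and 59.5 in F3 control and 54.1, 55.8 and 60.3 in F3 *thia*, with overlap in both.

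Of the Id targets, *Id1* and *Id3* lay higher in *thia* in F1, and all 4 had a negative log2 fold change in F3 that did not pass the test. *Id3* was at 104, 86.8 and 83.8 CPM in F1 control and 115, 107 and 105 CPM in F1 *thia*, and *Id1* at 59.2, 46.6 and 46.98 and 61.1, 63.5 and 59.96 CPM. For both genes the F1 *thia* libraries lay above the controls, at log2 fold changes of 0.26 ± 0.10 and 0.29 ± 0.11 (adjusted p = 0.526 and 0.523). In F3, *Id3* was at 154, 148 and 141 CPM in control and 108, 129.8 and 149 CPM in *thia*, and *Id1* at 86.9, 80.1 and 77.5 and 57.8, 83.02 and 83.1 CPM, with overlap. *Id2* was at 62.7, 54.9 and 56.3 CPM in F1 control, 70.5, 58.7 and 60.8 in F1 *thia*, 102, 103 and 87.2 in F3 control and 64.6, 95.99 and 81.6 in F3 *thia*. *Id4* was at 26.1, 19.9 and 30.2, 27.5, 23.6 and 24.5, 42.8, 43.3 and 33.6 and 22.7, 45.1 and 28.3 CPM in the same groups. These 2 genes overlapped in both generations, with values of 0.14 ± 0.10 and 0.01 ± 0.15 in F1 and −0.27 ± 0.15 and −0.32 ± 0.24 in F3. F3 *thia* replicate 1 was the lowest F3 library for each of the 4 Id genes. Without it the F3 value was 0.0159 for *Id1* and −0.13 for *Id4*, so the sign shared by all 4 rests on this library, and without F3 *thia* replicate 2 that of *Id4* was −0.64.

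**Figure D3:**
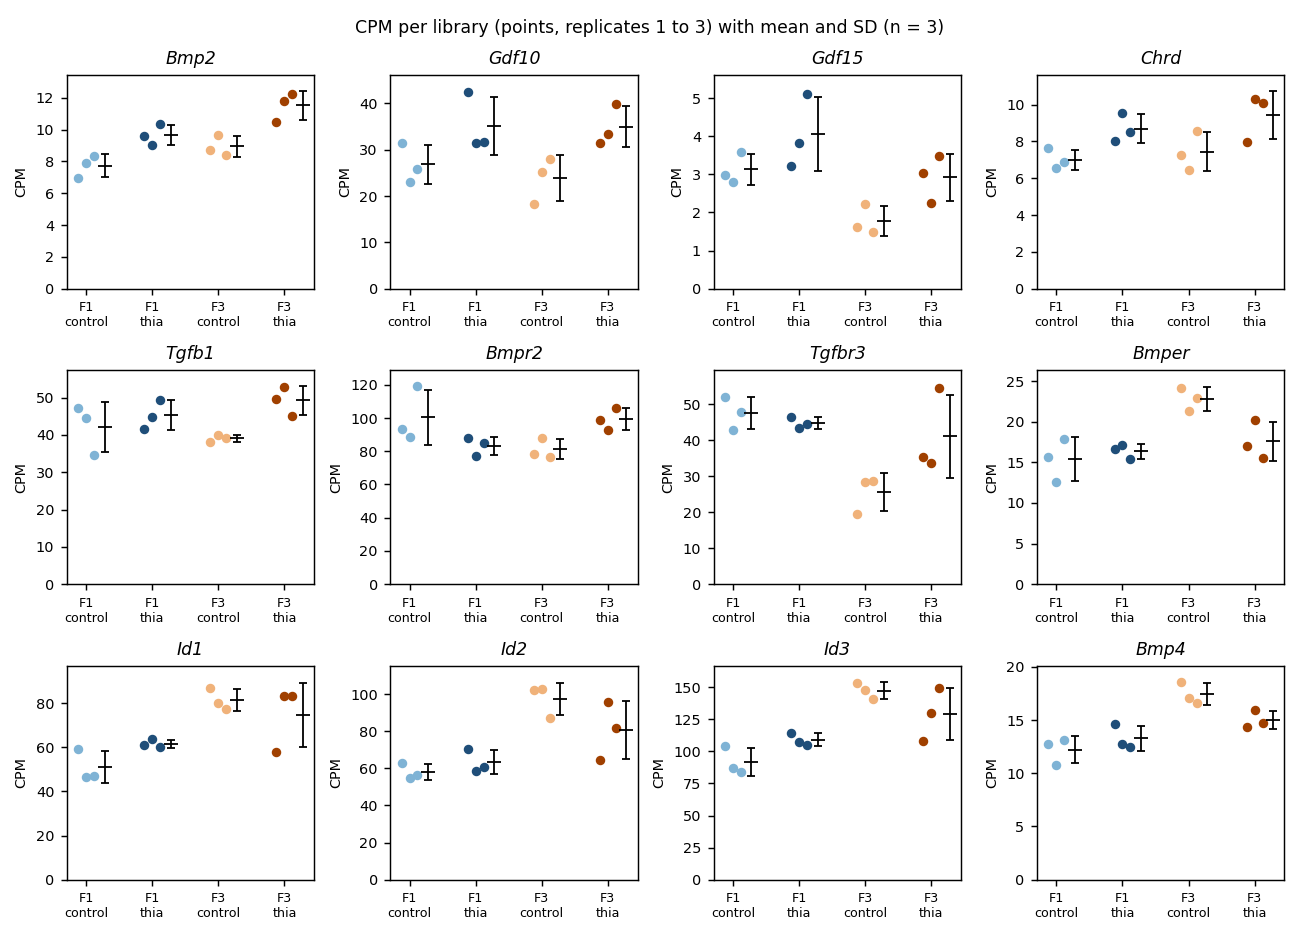
CPM of 12 members in each library on linear axes from 0, as points for replicates 1 to 3 of each group with the group mean and SD (n = 3) beside them. *Bmp2* is higher in *thia* without overlap in both generations, *Bmpr2* lies below control in F1 and above it in F3, and the Id genes are higher in F3 control than in F1 control.

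Whether *thia* acted differently in the 2 generations was asked with the difference of the effects, F3 minus F1, in a fit of all 12 libraries. *Bmpr2* and *Tgfbr3* had the smallest p for a more positive effect in F3 and *Nog* and *Id3* for a more negative one, but none passed the test. With edgeR, 0 of 45 members were under the FDR of 0.10, where 0.0051% of all genes were, and 8 of 45 (17.8%, against 14.0% of all genes) had an unadjusted p under 0.05. The difference was 0.56 ± 0.16 on the log2 scale for *Bmpr2* (adjusted p = 0.248) and 0.78 ± 0.25 for *Tgfbr3* (adjusted p = 0.254). For *Nog* it was −1.18 ± 0.42 (adjusted p = 0.265) and for *Id3* −0.44 ± 0.16 (adjusted p = 0.276). DESeq2 called 2 of 35 members (5.71%, against 4.74% of all genes), *Bmpr2* at an adjusted p of 0.0536 and *Tgfbr3* at 0.0915. The other Id genes had differences of −0.40 ± 0.19 for *Id1*, −0.40 ± 0.18 for *Id2* and −0.31 ± 0.31 for *Id4*. The count of 8 became 4 without F1 control replicate 2 (13.1% of all genes) or F3 control replicate 1 (9.02%), 5 without F1 *thia* replicate 1 (11.6%) or F3 *thia* replicate 1 (15.1%), and 13 without F3 *thia* replicate 2 (15.6%).

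The effect of *thia* averaged over F1 and F3 was computed after the values of each generation had been seen, in the fit of all 12 libraries. *Bmp2* and *Gdf10* passed the FDR of 0.10 of edgeR, both as higher, as 2 of 45 members (4.44%). Of all genes, 2.75% passed it and 1.6% did so as higher. The averaged log2 fold change was 0.35 ± 0.09 for *Bmp2* (adjusted p = 0.0889) and 0.47 ± 0.12 for *Gdf10* (adjusted p = 0.0961), with all 6 *thia* libraries of *Bmp2* above the controls of their generation. *Gdf15* (0.55 ± 0.17, adjusted p = 0.124) and *Chrd* (0.33 ± 0.11, adjusted p = 0.138) did not pass. The calls rested on nearly every library. Leaving out any library of F1 *thia*, any of F3 control, F1 control replicate 2 or 3 or F3 *thia* replicate 3 left 0 members called, while 1 was called without F1 control replicate 1, 3 without F3 *thia* replicate 2 and 5 without F3 *thia* replicate 1. The log2 fold change stayed between 0.31 and 0.39 for *Bmp2* and between 0.39 and 0.54 for *Gdf10* in these fits. The share of all genes called was not computed for them. DESeq2 called 4 of 40 members in this comparison, namely *Bmp2*, *Gdf10*, *Gdf15* and *Chrd*, where it called 10.8% of all genes.

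The largest contrast among these genes was between the controls of the 2 generations. In F3 control the Id targets, *Bmp4*, *Bmp6*, *Bmper*, *Tgfbr2* and *Bambi* were higher than in F1 control, and *Smad7*, *Tgfbr3*, *Bmp7*, *Bmp8a* and *Gdf15* were lower. With edgeR, 22 of 45 members passed the FDR of 0.10 (48.9%, against 42.3% of all 19626 genes tested), 13 as higher, where 19.9% of all genes were, and 9 as lower, where 22.4% were. DESeq2 called 23 of 45 (51.1%), and 40.5% of all genes. With both tools the share of members was near the background. Collection, breeding and sequencing of F1 and F3 cannot be told apart from generation in this contrast. The controls are the same libraries against which *thia* was compared, so the values for *thia* and for this contrast are not independent.

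Of the members lower in F3 control, *Smad7* had the smallest p, at a log2 difference of −0.996 ± 0.15 (adjusted p = 0.000592), with means of 44.3 ± 4.83 CPM in F1 control and 22.2 ± 2.93 CPM in F3 control (SD, n = 3). *Tgfbr3* differed by −0.90 ± 0.18 (adjusted p = 0.00306). *Bmp8a*, at 0.745, 0.706 and 0.630 CPM in F1 control and 0.341, 0.297 and 0.292 CPM in F3 control, had a log2 difference of −1.17 ± 0.31, on only 8 to 43 reads per library over the whole series. In the *thia* pools it was at 0.599, 0.744 and 0.472 CPM in F1 and 0.477, 0.230 and 0.389 CPM in F3. *Bmp7* differed by −0.54 ± 0.16 and *Gdf15* by −0.81 ± 0.24. Smaller differences were found for *Smad1* (−0.37 ± 0.12), *Bmpr2* (−0.31 ± 0.11) and *Smad2* (−0.20 ± 0.07). For all 9 the F3 controls lay below the F1 controls without overlap.

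Higher in F3 control were *Id3* by 0.68 ± 0.12, *Id2* by 0.75 ± 0.13, *Id1* by 0.68 ± 0.13 and *Id4* by 0.65 ± 0.22 on the log2 scale, with adjusted p from 0.00111 for *Id3* to 0.0372 for *Id4*. *Bmp4* differed by 0.52 ± 0.11, *Bmper* by 0.57 ± 0.14, *Bmp6* by 0.52 ± 0.17 and *Gdf6* by 0.48 ± 0.17. The signal receptors and decoys *Tgfbr2* and *Bambi* differed by 0.37 ± 0.09 and 0.32 ± 0.09, and *Nog*, *Smad9* and *Tgfb3* by 0.83 ± 0.30, 0.38 ± 0.14 and 0.28 ± 0.12. In each of these 13 genes the F3 controls lay above the F1 controls. Among the 22, 13 genes, *Smad7*, *Tgfbr3*, *Bmp8a*, *Bmp7*, *Gdf15*, *Id1*, *Id2*, *Id3*, *Bmp4*, *Bmper*, *Tgfbr2* and *Bambi* among them, kept the call whichever of the 12 libraries was left out.

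The other 9 lost it without certain control libraries. *Bmp6* lost it without F1 control replicate 2 (adjusted p = 0.123) and *Smad2* without F3 control replicate 3 (0.156). *Id4* lost it without F1 control replicate 2 or F3 control replicate 1 (adjusted p up to 0.141), and *Smad1* without F1 control replicate 3 or F3 control replicate 1 (up to 0.145). *Gdf6* did so without F1 control replicate 2 or F3 control replicates 1 or 2 (up to 0.159), *Bmpr2* without F1 control replicate 3 or F3 control replicates 1 or 3 (up to 0.187), and *Nog* without F1 control replicate 2 or F3 control replicates 1 or 3 (up to 0.189). *Smad9* lost the call without either of F1 control replicates 1 and 2 or F3 control replicates 1 and 3 (up to 0.186), and *Tgfb3* without any of the 6 control libraries (up to 0.223). Other settings also ended 4 of these calls, upper quartile scaling those of *Bmpr2* and *Smad2*, no filter those of *Smad9* and *Tgfb3*, and the replicate block that of *Smad9*.

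**Figure D4:**
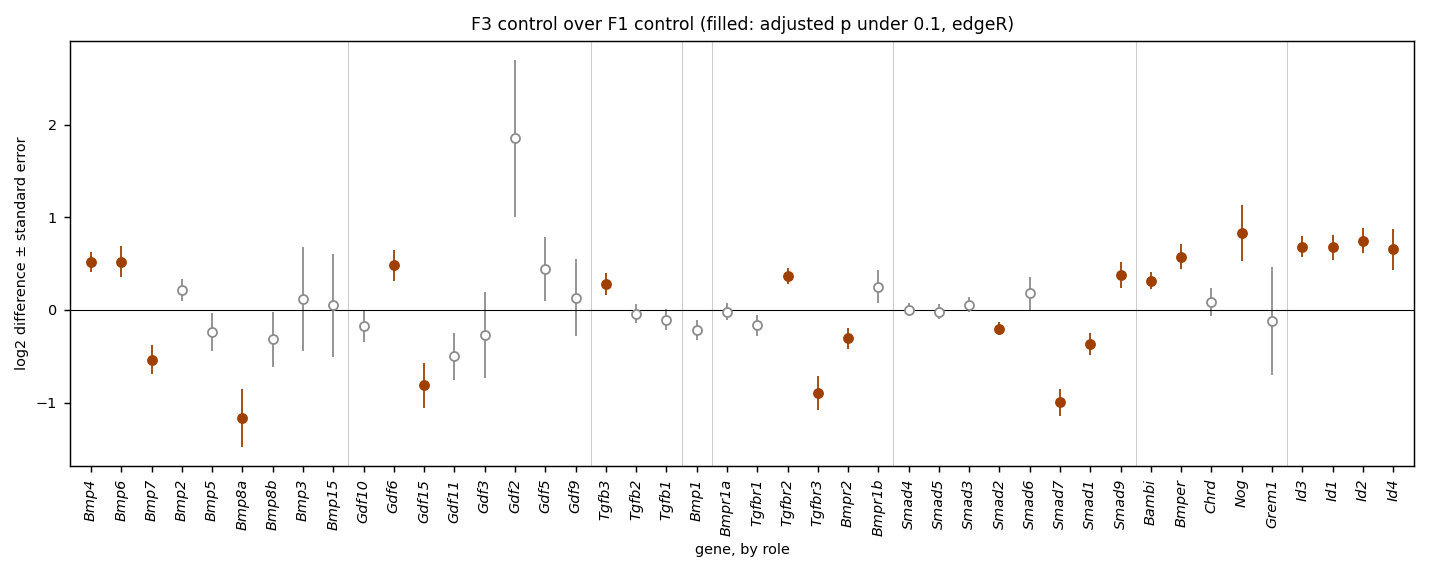
Log2 difference of F3 control over F1 control with its standard error for 44 members tested, ordered by role, with filled points for an adjusted edgeR p under 0.10. The 4 Id genes lie together between 0.65 and 0.75, and *Smad7*, *Tgfbr3* and *Bmp8a* lie near or below −0.9.

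The effect of *thia* in F3 and the difference between the controls share the F3 controls, so their values are not independent, and are given side by side for the 9 members with an unadjusted p under 0.05 in F3. *Tgfb1* had 0.33 for *thia* and −0.11 between the controls, *Bmpr2* 0.29 and −0.31, and *Gdf10* 0.55 and −0.17. *Tgfbr3* had 0.69 and −0.90, *Bmp2* 0.36 and 0.21, and *Gdf15* 0.73 and −0.81. For *Bmp1* the values were 0.34 and −0.22, for *Bmper* −0.38 and 0.57 and for *Gdf6* −0.42 and 0.48.

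Other genes of the pathway were read from lists of receptors, extracellular regulators, intracellular regulators and targets, and again 0 were called by edgeR in either generation. Of the 11 other receptors, 3 were higher in *thia* at an unadjusted p under 0.05 in F1 and 3 in F3, and 0 lower in either, where 4.63% and 11.0% of all genes were higher. The median log2 fold change of this list was 0.14 in F1 and 0.32 in F3, beside 0.01 and 0.00 over all genes. The 3 genes were the same in both, *Eng* (endoglin) and *Acvrl1* (ALK1), a co-receptor and a type I receptor of endothelium, and *Rgma*, a BMP co-receptor. *Eng* was at 40.1, 48.5 and 48.01 CPM in F3 control and 76.7, 77.3 and 77.2 CPM in F3 *thia*, a log2 fold change of 0.76 ± 0.09 (adjusted p = 0.101), and at 66.3, 54.3 and 56.8 and 62.1, 81.3 and 80.2 CPM in the F1 groups (0.35 ± 0.12, adjusted p = 0.518). *Acvrl1* had 0.47 ± 0.10 in F3 and 0.23 ± 0.10 in F1, and *Rgma* 0.61 ± 0.14 and 0.24 ± 0.11. DESeq2 gave these 3 genes adjusted p of 2.16e-08, 0.00613 and 0.0034 in F3, all under its FDR.

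Of 28 extracellular regulators, 3 were higher in F1 *thia* at the unadjusted threshold and 11 in F3 *thia*, with 0 lower in either, and the median of the list was 0.10 in F1 and 0.28 in F3. Over all genes 4.63% and 11.0% were higher at that threshold in F1 and F3, and 4.13% and 10.0% were lower. In either direction 8.76% and 21.1% passed it. These are also the shares to set beside the lists that follow. *Pcsk6*, a convertase that matures ligand precursors, was at 40.6, 50.05 and 43.2 CPM in F3 control and 92.5, 75.1 and 110.1 CPM in F3 *thia*, a log2 fold change of 1.05 ± 0.15 (adjusted p = 0.101). The latent TGF-beta binding protein *Ltbp4* had 0.77 ± 0.15 and the proteoglycan *Bgn* 0.39 ± 0.08 in F3. DESeq2 called these 3 genes in F3, at adjusted p of 6.94e-08, 0.000209 and 0.00127. In F1 the smallest p-values were those of the activin inhibitor *Fstl3* (0.58 ± 0.15), the proteoglycan *Dcn* (0.28 ± 0.10) and *Ltbp3* (0.28 ± 0.12), each with an edgeR adjusted p above 0.4, while DESeq2 gave *Fstl3* 0.073, under its FDR of 0.15. Of 15 intracellular regulators, 0 were higher and 1 lower in F1, and 1 higher and 1 lower in F3, with medians of −0.13 and −0.02. They were led by the deubiquitinase *Usp15* in F1 (−0.20 ± 0.09) and the ubiquitin ligase *Smurf1* in F3 (0.32 ± 0.08). Of the 11 further targets tested, 3 were higher in F1 and 1 higher and 2 lower in F3, with medians of 0.08 and −0.23. *Pmepa1*, a TGF-beta target, had 0.38 ± 0.10 in F3, and *Runx2* −0.89 ± 0.26. DESeq2 called *Smurf1*, *Pmepa1* and *Runx2* in F3 as well, at adjusted p of 0.0276, 0.0269 and 0.052. In the effect averaged over F1 and F3, edgeR called 3 of the 11 receptors, 7 of the 28 extracellular regulators, 0 of the 15 intracellular regulators and 1 of the 11 targets, all higher. Of all genes, 1.6% were called as higher and 1.15% as lower.

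Markers of the cells in the pools moved with some of these values. Endothelial genes summed to 152 to 176 CPM in F3 control and 229 to 278 CPM in F3 *thia*, and 6 of 6 were higher in F3 *thia* at an unadjusted p under 0.05, as were the endothelial receptor genes *Eng* and *Acvrl1*. In F1 the sums were 221 to 270.3 and 243 to 293 CPM, with 0 of 6 past that threshold. Fetal Leydig cell genes summed to 2294 to 3764 CPM in F3 control and 3970.03 to 7146 CPM in F3 *thia*, with 3 of 6 higher, and to 3369 to 4013 and 2824 to 4336 CPM in the F1 groups. Germ cell genes summed to 826 to 1138 CPM in F1 control and 693 to 848 CPM in F1 *thia*, with 6 of 8 lower, and to 556 to 865 and 367 to 645 CPM in F3, with 5 of 8 lower. The sum of the macrophage genes lay wholly higher in F1 *thia* (46.7 to 53.5 CPM in control and 55.8 to 69.2 CPM in *thia*, 2 of 5 genes higher). That of the adrenal genes lay wholly lower (49.1 to 66.3 and 33.9 to 43.7 CPM, 2 of 6 genes lower and 1 higher). Taken singly, *Adgre1*, *Cd68*, *Mrc1*, *Mc2r* and *Chga* overlapped in F1, and *Dbh* lay wholly above control. Of the interstitial progenitor genes, 3 of 6 were higher in F3 *thia*. Their part in the values of the pathway genes was not tested.

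Between the controls, Sertoli cell genes summed to 1529.9 to 1693 CPM in F1 and 648 to 895 CPM in F3, with 7 of 8 lower in F3, endothelial genes had 5 of 6 lower, and erythroid genes 5 of 6 higher. These counts and those below are at an unadjusted edgeR p under 0.05, which 20.8% of all genes passed as higher and 23.3% as lower. Macrophage genes summed to 46.7 to 53.5 CPM in F1 control and 91.95 to 149 CPM in F3 control, with 5 of 5 higher. The sum of the ovary genes lay wholly higher in F3 control (85.7 to 96.8 CPM in F1 and 118 to 129.96 CPM in F3, 3 of 5 genes higher). *Wnt4* alone lay wholly lower, at 45.1, 52.6 and 53.9 CPM in F3 control against 65.2, 57.4 and 60.2 CPM in F1 control. *Foxl2* and *Irx3* overlapped. Of the germ cell genes, 4 of 8 were lower. Mesonephric genes summed to 39.9 to 59.7 CPM over the 12 libraries, with *Lhx1* and *Wnt9b* under 1 CPM in each, and adrenal genes to 49.1 to 66.3 CPM in F1 control and 39.8 to 58.003 CPM in F3 control. Cartilage and bone genes summed to 25.1 to 27.5 and 19.7 to 24.6 CPM in these groups and interstitial progenitor genes to 1389 to 1634 and 1352 to 1539.8 CPM, with 4 of 6 lower and 1 higher. These shifts coincide with the difference between the F1 and F3 controls in the pathway genes, and their part in it was not tested.

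**Figure D5:**
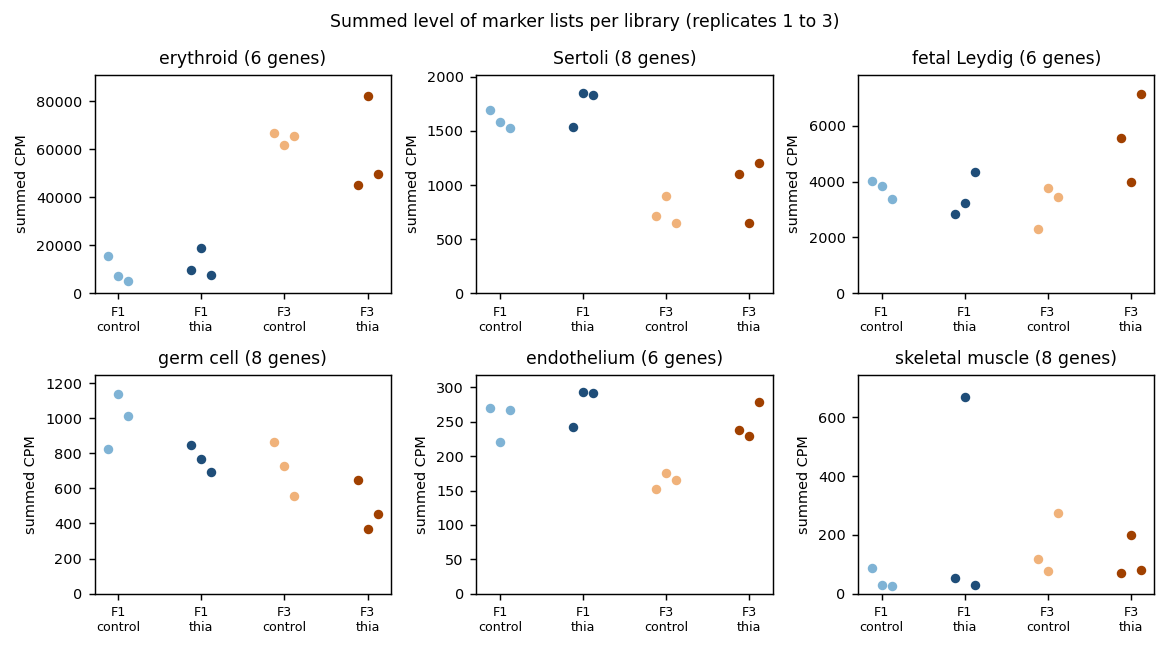
Summed CPM of 6 marker lists in each of the 12 libraries on linear axes from 0, with replicates 1 to 3 side by side in each group. Erythroid genes are at 45051 CPM or more in every F3 library and at 18915 CPM or less in every F1 library, Sertoli genes are lower in F3, endothelial genes are higher in F3 *thia* than in F3 control, and skeletal muscle genes peak in F1 *thia* replicate 2.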

How the data were processed

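RNA of 12 pools of embryonic testes was sequenced as paired-end strand-specific libraries. Alignment by the authors used HISAT2 2.1.0 on mm10, followed by featureCounts per gene, and the submitters' processing notes also name bcl2fastq 2.20.0.422 and DESeq2 2.11.40.7. The authors deposited the unnormalized count of each of 35976 gene symbols. The strand and multi-mapping options of the counting are not given in the sources used here. The exon lengths for RPKM and the gene positions came from GENCODE M21 on the same build, with 26763 symbols matched directly and 512 through RefSeq synonyms.

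The statistics were run with edgeR 4.0.16 under R 4.3.3. The filterByExpr function removed low genes (minimum count 10), TMM factors scaled the libraries, and the quasi-likelihood test compared groups, with p-values adjusted by Benjamini-Hochberg over all genes tested. The FDR was 0.15 in F1 and 0.10 in F3, as the study applied them, and 0.10 for the difference of the effects and for the comparison of the controls. *Thia* and control were fitted within each generation, and the other comparisons in a fit of all 12 libraries. Standard errors (SE) were obtained from the fold change and its F statistic. CPM used TMM over the 12 libraries. A level is not overlapping where every library of a group lies on one side of every library of the other.

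The members and the gene lists were chosen with earlier results of these data known, so no list serves as independent support. Values of every library are given for each member that passed a test, for the 6 members with the smallest p in F1, 8 in F3, 4 in the difference and 5 between the controls, for the highest member of each role, and for *Bmp2*, *Gdf10* and *Smad2*. *Gdf11* and *Smad5* were named outside this rule after their values were seen. The values of 1 member are not reported here, although the counts of members include it. At most 3 genes of each further pathway list are named per generation.

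The alternatives were DESeq2 1.42.0, its size factors and upper quartile scaling in edgeR, either no filter or a stricter filter of 10 counts per library, bias-adjusted deviances, a replicate block, a joint fit of both generations, other FDRs and omission of each library. The steps were tested on simulated data in which 200 genes were changed.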

Additional observations from a re-analysis of the deposited data

Results flagged for a closer look

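*Bmpr2* lay lower in *thia* in F1, at a log2 fold change of −0.25, and higher in F3, at 0.29, and all 3 *thia* libraries were below the controls in F1 and above them in F3. What drew attention was that the libraries of the 2 generations moved in opposite directions. The edgeR test of the difference gave an adjusted p of 0.248, which does not pass the FDR of 0.10, while DESeq2 gave 0.0536, which does.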

How the results depend on the processing

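The counts of members past a threshold depended on the tool and on single libraries in the *thia* comparisons and less so between the controls. In F1 the count under the FDR stayed at 0 throughout, and the count at an unadjusted p under 0.05, 6 as reported, ran from 1 to 8 when 1 library was left out. In F3 the count under the FDR was 8 with DESeq2, 4 in a fit of all 12 libraries (9.86% of all genes), 3 at an FDR of 0.15 (9.85% of all genes) and 0 to 4 when 1 library was left out, and the unadjusted count of 9 ran from 3 to 16. For the difference of the effects DESeq2 called 2, and the unadjusted count of 8 ran from 4 to 13 and was 13 without replicate 2 of both *thia* groups, a setting chosen after seeing the data. For the averaged effect the count of 2 was 1 with no filter, 4 with DESeq2, 0 with the replicate block, 0 to 5 when 1 library was left out and 0 without replicate 2 of both *thia* groups. Its unadjusted count was 9 of 45 (20.0%, against 19.3% of all genes), which is close to the background, and ran from 5 to 13. Between the controls the count of 22 ran from 15 to 24 when 1 library was left out and from 21 to 23 under the other settings. The sign of *Smad2* in F3 turned to −0.0236 with upper quartile scaling and ran from −0.0453 to 0.0314 when 1 library was left out. Of 808 alternative values for single genes, 731 kept direction and side of the threshold, 54 no longer passed, 19 newly passed and 4, all for *Smad2* in F3, turned sign.

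The deviations of same-numbered control and *thia* libraries from their group means correlated at −0.04 to 0.03 in F1 and −0.37 to 0.20 in F3. Those of differently numbered libraries correlated at −0.075 to 0.109 in F1 and −0.365 to 0.456 in F3. The replicate numbers thus gave no sign of pairing. Deviations within a group of 3 sum to 0, so these values cannot settle whether libraries were paired. With the replicate block, the counts under the FDR were 0 in F1, 0 in F3, 0 for the difference and 21 between the controls, and the unadjusted counts 6, 9, 7 and 22. Members under 1 CPM rest on few reads, and the cause of these shifts was not tested.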

Other observations

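Summed over roles, the 4 Id genes took 208 to 252 CPM in F1 control and 339 to 386 CPM in F3 control, while the 8 Smads took 578 to 646 CPM and 565 to 584 CPM. The 6 receptors took 487 to 604 CPM in F1 control and 463 to 516 CPM in F3 control.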
